A study of Mus musculus with 18 samples.

Results

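The TGF-beta family module examined here comprised 10 genes chosen by name, namely the ligands Tgfb1, Tgfb2 and Tgfb3, the receptors Tgfbr1, Tgfbr2 and Tgfbr3, and the latent TGF-beta binding proteins Ltbp1, Ltbp2, Ltbp3 and Ltbp4, of 36528 genes counted. All 10 passed the filter on low counts, which 15521 genes passed, and each had reads in all 18 samples. RNA-seq was performed on mouse (C57BL/6) primary cells bought from a vendor, which the study names renal proximal tubulo-interstitial epithelial cells (RPTECs). They were grown in culture, so the values describe cultured cells rather than a kidney. Cells received vehicle (DMSO), recombinant mouse TWEAK at 100 ng/mL, or TWEAK at 100 ng/mL together with 3 µM NIK SMI1, an inhibitor of the NF-κB inducing kinase NIK, for 6 h or 24 h, with 3 samples in each of the 6 groups. No group analysed here received NIK SMI1 alone. The comparisons asked how the cytokine altered these genes and how much of that alteration was altered in turn when NIK was inhibited. The labels do not say whether the 3 samples of a group were separate cultures. The p-values set each difference against the spread between samples within groups, which may be technical. That spread was pooled over the 6 groups and moderated across genes.

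TGF-beta is secreted as an inactive complex in which the mature dimer stays wrapped in its own propeptide, and the propeptide is usually tethered to an LTBP that anchors it in the extracellular matrix. Once released by integrins, proteases or thrombospondin, the ligand binds the type II receptor TGFBR2, which recruits and phosphorylates the type I receptor TGFBR1, and TGFBR1 then phosphorylates SMAD2 and SMAD3. In the kidney this pathway is best known for driving matrix deposition after tubular injury. TWEAK, a TNF family cytokine, signals through its receptor Fn14 and activates NF-κB, including the noncanonical branch that requires NIK.

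The promoters of Tgfb2 and Ltbp2 are shown because these 2 members were called higher with TWEAK and called lower when NIK SMI1 was added, at both times. For Ltbp2 the call with NIK SMI1 at 6 h was near the limit and was lost in several alternative fits, given below. Each line gives the 250 bases before the RefSeq transcript start on build GRCm38.p6, read 5′ to 3′ on the minus strand that carries both genes, at chr1:186705990-186706239 for Tgfb2 and chr12:84876492-84876741 for Ltbp2. Capitals mark the TATA box letters TATAAA and the SMAD-type letters CAGACA, searched on both strands.
Tgfb2: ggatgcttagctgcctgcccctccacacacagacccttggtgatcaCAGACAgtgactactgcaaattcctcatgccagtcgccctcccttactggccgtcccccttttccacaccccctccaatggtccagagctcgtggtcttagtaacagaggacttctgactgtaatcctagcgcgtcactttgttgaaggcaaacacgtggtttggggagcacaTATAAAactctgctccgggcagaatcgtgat
Ltbp2: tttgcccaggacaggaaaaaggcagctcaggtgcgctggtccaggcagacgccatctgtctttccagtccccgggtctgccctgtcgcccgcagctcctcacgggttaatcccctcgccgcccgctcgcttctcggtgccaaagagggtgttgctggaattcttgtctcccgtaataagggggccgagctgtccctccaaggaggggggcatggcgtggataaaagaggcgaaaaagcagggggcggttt
TATAAA stood 31 bases before the Tgfb2 start, and 12.4% of all 32851 promoters of this length held these letters. CAGACA stood 204 bases before the same start. It was found in 3 of the 12 member starts, of Tgfb2, Tgfbr1 and Ltbp1, against 17.1% of all promoters. The κB motif, searched by its usual degenerate consensus, was present in 3.90% of all promoters and in none of the 12 starts of the 8 members that had an entry. The AP-1 letters TGANTCA, held by 6.75% of promoters, were in none of the 12 starts either. The CRE letters TGACGTCA were found in 1 of the 12, a start of Ltbp1, against 1.55% of all promoters. These matches describe the letters in this window and do not mark binding sites.

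Libraries held 18040966 to 51956444 reads on genes, with a median of 35374254. A list of 8 genes of TWEAK and NIK signalling was read first. Beside known targets it held Tnfrsf12a, which encodes the receptor Fn14, and Map3k14, which encodes NIK. With TWEAK 7 of the 8 rose at each time, where 11.7% of all genes rose at 6 h and 18.3% at 24 h. With NIK SMI1 added 6 fell and 2 rose at 6 h, beside 5.70% and 5.34% of all genes. At 24 h 6 fell and 1 rose, beside 8.29% and 10.2%. Ccl9, a chemokine, rose by 5.35 on the log2 scale at 6 h and fell by 2.35 when NIK SMI1 was added. The study names Ccl9 as TWEAK-inducible and NIK-dependent in these cells, so it is not an independent check. The cells carried strong epithelial transcripts, with Krt18 at 3493 to 4939 CPM (reads of a gene per 1000000 reads on genes) and Cdh1 at 1020 to 1459, whereas the 8 proximal tubule markers summed to 10.7 to 14.6 CPM. Of these, Slc5a2 lay at 5.83 to 8.52 CPM, Cubn at 1.93 to 4.64 CPM and Ggt1 at 0.325 to 2.11 CPM, each with reads in all 18 samples, while Lrp2 reached at most 0.586 CPM, Aqp1 at most 0.455 CPM, and Slc34a1, Slc22a6 and Hnf4a stayed below 0.06 CPM. Markers of pancreatic islet, summed over 8 genes, lay between 14.3 and 29.0 CPM in all vehicle and all 6 h samples, at 13.2, 0.214 and 4.18 CPM in the 24 h TWEAK samples, and at 0.0451 to 0.0870 CPM in the 24 h TWEAK plus NIK SMI1 samples. Results are given below without the 2 low TWEAK samples where that changed a call. No TWEAK sample reached the range of the 24 h inhibitor group, so in comparisons of that group the islet difference and the treatment cannot be told apart. Leaving out the 2 low TWEAK samples keeps only the sample at 13.2 CPM, which is farther from the inhibitor group. For NIK SMI1 against TWEAK at 24 h that fit therefore cannot check the islet difference. Of the 5 leukocyte markers, 1 passed the filter, Csf1r, which set the summed level of 11.5 to 12.6 CPM in 24 h TWEAK samples against 8.02 to 8.79 CPM in 24 h vehicle samples, with Cd3e at 0 throughout. The summed level of the 7 epithelial markers was 7244 to 7323 CPM with TWEAK at 24 h and 7646 to 7768 CPM with vehicle. The 7 did not move together: 6 fell and 1 rose with TWEAK at 24 h, where 20.7% of all genes fell and 18.3% rose. Epcam went up, from 641 to 653 CPM with vehicle to 1200 to 1230 CPM with TWEAK at 24 h. The 7 fibroblast markers summed to 9.74 to 11.3 CPM with TWEAK at 6 h and 12.3 to 14.0 CPM with vehicle. At 24 h these sums overlapped, at 9.895 to 14.05 CPM with TWEAK and 12.33 to 12.65 CPM with vehicle. Col1a1 made up most of the fibroblast sum, at 8.77 to 13.3 CPM over all samples. In bulk samples, fewer cells of a type and less RNA per cell cannot be told apart.

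Levels can be compared between genes only per length, for which the deposited RPKM were used. Among vehicle samples at 6 h, Ltbp3 stood highest at 77.7 ± 4.17 RPKM (SD, n = 3, as for every mean below), followed by Tgfbr2 at 45.4 ± 1.64 and Tgfb1 at 30.6 ± 0.330. The order then ran through Ltbp2 at 14.5 ± 0.617, Ltbp1 at 10.8 ± 0.621, Tgfbr1 at 6.93 ± 0.379 and Ltbp4 at 4.36 ± 0.130. Tgfb3 at 2.02 ± 0.122, Tgfb2 at 0.517 ± 0.0577 and Tgfbr3 at 0.150 ± 0.0125 RPKM closed it. The 3 samples of each gene were separate from those of its neighbours in this order. The order was the same, with no overlap between genes, in 24 h vehicle samples and in both inhibitor groups, and it changed with TWEAK. At 6 h with TWEAK Tgfb2, at 2.02 ± 0.129 RPKM, lay above Tgfb3, at 1.45 ± 0.0445 RPKM, and Tgfbr2, at 35.6 ± 0.464 RPKM, overlapped Tgfb1, at 35.0 ± 0.159 RPKM. At 24 h with TWEAK Ltbp4, at 5.18 ± 0.240 RPKM, lay above Tgfbr1, at 4.65 ± 0.0481 RPKM, and Tgfb2, at 1.89 ± 0.162 RPKM, overlapped Tgfb3, at 1.91 ± 0.0581 RPKM.

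**Figure D1:**
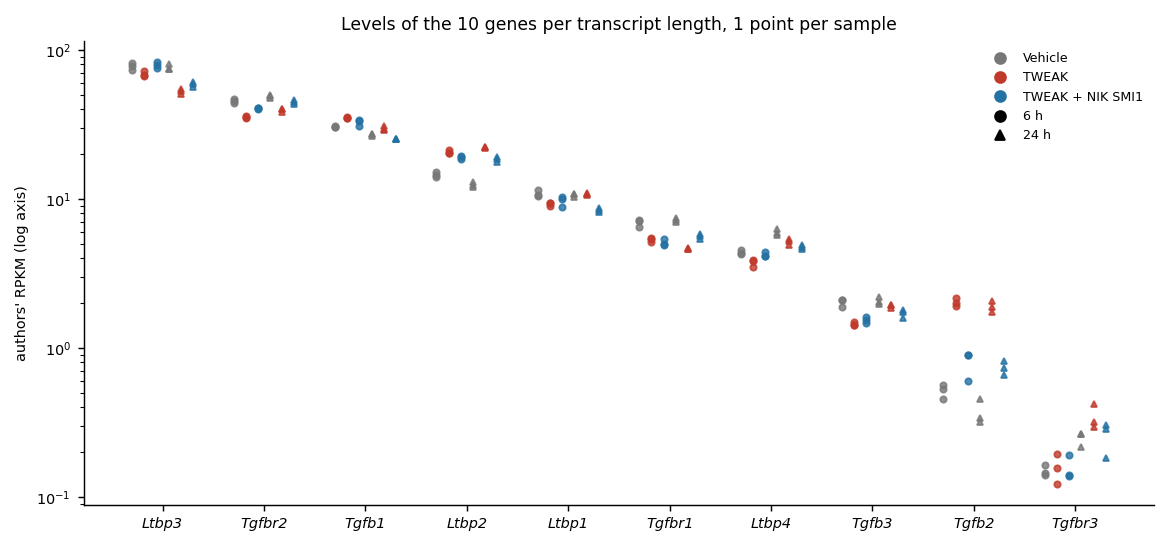
RPKM as deposited (log axis) for the 10 genes, ordered by mean level, with 1 point per sample, circles for 6 h and triangles for 24 h, in grey for vehicle, red for TWEAK and blue for TWEAK plus NIK SMI1. The levels run from about Ltbp3 at 77.7 RPKM to Tgfbr3 at 0.150 RPKM in 6 h vehicle samples, and Tgfb2 shows the widest gap between treatments.

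In each class 1 gene supplied most of the transcript. Tgfb1 made up 92.3% ± 0.228 of the summed ligand RPKM with vehicle at 6 h, and its share stayed between 88.6% and 93.7% in every sample. Tgfbr2 made up 85.8% to 89.1% of the receptor RPKM, and the coreceptor Tgfbr3 never exceeded 0.932%. Among the latent binders the balance moved: at 24 h Ltbp3 accounted for 72.4% ± 0.251 of the summed RPKM with vehicle, 58.0% ± 0.845 with TWEAK and 65.1% ± 0.0878 with TWEAK plus NIK SMI1. Over the same groups Ltbp2 accounted for 11.9% ± 0.208, 24.4% ± 0.540 and 20.4% ± 0.165. The share of Tgfb2 among ligands was 1.27% ± 0.285 with vehicle at 24 h, 5.60% ± 0.300 with TWEAK and 2.65% ± 0.258 with TWEAK plus NIK SMI1. The summed ligand RPKM moved far less than Tgfb2, from 29.4 ± 0.692 with vehicle to 33.7 ± 1.13 with TWEAK at 24 h, and the summed receptor RPKM was 56.2 ± 1.38 with vehicle and 44.5 ± 0.920 with TWEAK.

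TWEAK raised 3 of the 10 genes and lowered 6 at 6 h, and raised 3 and lowered 4 at 24 h, at an adjusted p below 0.05 (edgeR quasi-likelihood test over all 15521 genes). The background was high. At 6 h 23.7% of all genes tested were called, 11.7% higher and 12.0% lower, and at 24 h 39.0% were called, 18.3% higher and 20.7% lower. Tgfb1, Tgfb2 and Ltbp2 rose at both times, and Tgfbr1, Tgfbr2, Ltbp3 and Ltbp4 fell at both. The median log2 change of the 10 genes was -0.186 at 6 h and -0.034 at 24 h, beside -0.003 and -0.006 over all genes tested. The 3 treated and 3 vehicle samples did not overlap for 9 of the 10 genes at 6 h, where 36.0% of all genes did not overlap, and for 9 of the 10 at 24 h, against 49.7%. With NIK SMI1 added to TWEAK, 4 of the 10 genes differed from TWEAK alone at 6 h, 2 higher and 2 lower, where 11.0% of all genes were called (5.34% higher, 5.70% lower). At 24 h 7 differed, 3 higher and 4 lower, against 18.5% of all genes (10.2% higher, 8.29% lower). The groups did not overlap for 6 genes at 6 h, against 26.6% of all genes, and for 9 at 24 h, against 33.8%. The 2 sets of comparisons share the TWEAK samples, so their directions for a gene are not independent of each other.

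**Figure D2:**
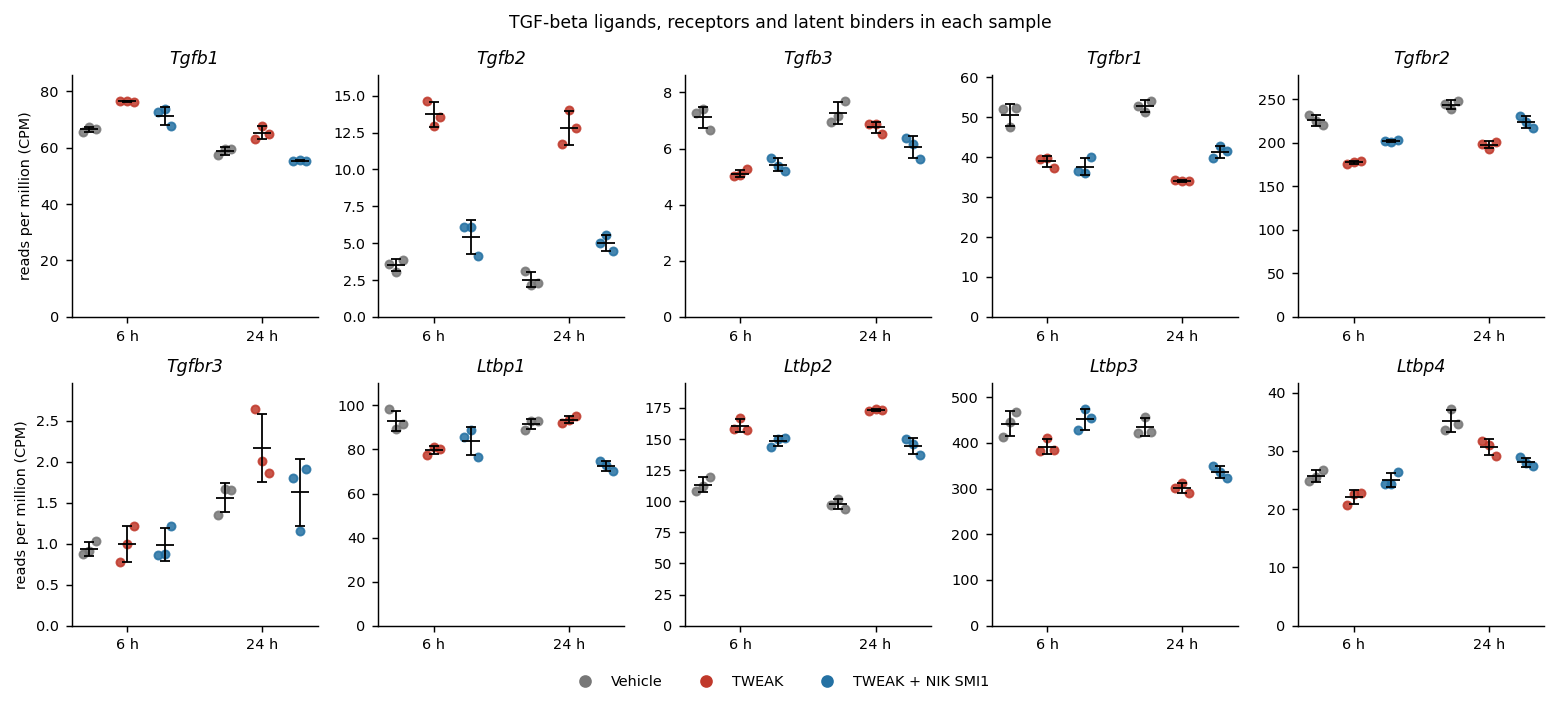
CPM of each gene in each of the 18 samples (points) with the mean and SD of the 3 samples of a group (black bars), for vehicle (grey), TWEAK (red) and TWEAK plus NIK SMI1 (blue) at 6 h and 24 h; every axis starts at 0. For Tgfb2 the 6 TWEAK samples sit between 11.7 and 14.7 CPM and the 6 vehicle samples between 2.18 and 3.87 CPM.

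Tgfb2, the ligand isoform with its own requirement for the coreceptor betaglycan in high-affinity binding, gave the widest response. Vehicle samples at 6 h held 3.56, 3.07 and 3.87 CPM, TWEAK samples 14.7, 12.9 and 13.6 CPM, and TWEAK plus NIK SMI1 samples 6.07, 6.07 and 4.10 CPM. At 24 h the same groups held 3.11, 2.18 and 2.29 CPM, 11.7, 14.0 and 12.8 CPM, and 5.01, 5.54 and 4.48 CPM. The treatments did not overlap at either time, and the inhibitor samples lay between vehicle and TWEAK throughout. Tgfb2 rose 3.92-fold at 6 h (log2 change 1.97, SE 0.120, adjusted p 4.68e-13) and 4.88-fold at 24 h (2.29, SE 0.138, adjusted p 1.71e-13). By size of its rise it ranked 78 of 15521 genes at 6 h and 97 at 24 h. NIK SMI1 lowered it 2.47-fold at 6 h (log2 change -1.31, SE 0.120, adjusted p 9.49e-09) and 2.58-fold at 24 h (-1.37, SE 0.117, adjusted p 9.94e-10). What remained with the inhibitor was still above vehicle, by 0.66 (SE 0.141, adjusted p 0.00156) at 6 h and by 0.92 (SE 0.154, adjusted p 5.61e-05) at 24 h on the log2 scale. Neither the TWEAK effect (difference 0.32, SE 0.191, adjusted p 0.374) nor the NIK SMI1 effect (-0.06, SE 0.170, adjusted p 0.895) was shown to differ between the times. Tgfb2 was the only member to pass the study's own limits of 2-fold for TWEAK, which 1.75% of all genes passed upward at 6 h and 2.34% at 24 h, and of 1.5-fold for NIK SMI1, which 1.10% and 1.75% passed downward. The counts behind these values were modest, from 43 to 655 reads per sample. Fitted without the 2 TWEAK samples at 24 h that were low in islet reads, Tgfb2 was 2.15 (adjusted p 7.09e-09) above vehicle. With those 2 samples alone as the 24 h TWEAK group, which brings it nearer to the inhibitor group in islet reads but not level with it, the Tgfb2 difference with NIK SMI1 was -1.42 (adjusted p 5.03e-09).

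Tgfb1, the main ligand by level and the isoform most studied in renal fibrosis, moved by small amounts. At 6 h it stood at 65.6, 67.4 and 66.7 CPM with vehicle, 76.7, 76.4 and 76.3 CPM with TWEAK, and 72.5, 73.7 and 67.6 CPM with TWEAK plus NIK SMI1. At 24 h the values were 57.3, 59.7 and 59.7 CPM, 63.2, 67.8 and 64.7 CPM, and 55.4, 55.5 and 55.2 CPM. All TWEAK samples lay above all vehicle and all inhibitor samples of their time. The rise with TWEAK was 1.16-fold at 6 h (log2 change 0.21, SE 0.0378, adjusted p 8.07e-05) and 1.11-fold at 24 h (0.15, SE 0.0399, adjusted p 0.00295). The 24 h call for Tgfb1 was lost without the 2 TWEAK samples low in islet reads (0.11, SE 0.0579, adjusted p 0.198). NIK SMI1 lowered Tgfb1 1.18-fold at 24 h (-0.24, SE 0.0390, adjusted p 3.12e-05), while the 6 h difference of -0.10 (SE 0.0387) missed the threshold with an adjusted p of 0.0922.

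Tgfb3, the third ligand isoform, was lower with TWEAK at 6 h. Vehicle samples held 7.26, 7.40 and 6.68 CPM at 6 h and TWEAK samples 5.03, 5.05 and 5.26 CPM, with no overlap and a fall of 0.46 on the log2 scale (SE 0.0873, adjusted p 0.000186). With NIK SMI1 added the 6 h values were 5.68, 5.39 and 5.21 CPM, close to TWEAK alone (0.09, SE 0.0957, adjusted p 0.630) and below vehicle (-0.37, SE 0.0926, adjusted p 0.00705). At 24 h vehicle gave 6.95, 7.15 and 7.71 CPM, TWEAK 6.87, 6.87 and 6.53 CPM and the inhibitor group 6.38, 6.15 and 5.62 CPM. These 24 h groups were ordered without overlap, but the adjusted p was 0.414 for TWEAK and 0.254 for NIK SMI1. The difference between the 2 TWEAK effects missed the threshold too (0.36, SE 0.125, adjusted p 0.0751).

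Both signalling receptors were lower with TWEAK. Tgfbr2, the type II receptor that binds ligand first, held 232, 224 and 220 CPM with vehicle at 6 h, 176, 178 and 179 CPM with TWEAK, and 202, 201 and 204 CPM with TWEAK plus NIK SMI1. At 24 h it held 244, 238 and 248 CPM, 199, 193 and 201 CPM, and 230, 224 and 216 CPM. The 3 treatments stood apart at both times, with the inhibitor samples in between. Tgfbr2 fell with TWEAK by 0.33 (SE 0.0329, adjusted p 6.02e-09) at 6 h and by 0.30 (SE 0.0333, adjusted p 2.55e-08) at 24 h on the log2 scale. With NIK SMI1 it rose relative to TWEAK by 0.18 (SE 0.0334, adjusted p 0.000316) and 0.17 (SE 0.0330, adjusted p 0.000268), and it remained under vehicle by -0.15 (SE 0.0332, adjusted p 0.00226) and -0.13 (SE 0.0331, adjusted p 0.00627). The last of these was lost without replicate 3 of the 24 h inhibitor group, where the Tgfbr2 value became -0.11 (adjusted p 0.0533).

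Tgfbr1, the type I receptor kinase that phosphorylates SMAD2 and SMAD3, was lower with TWEAK at both times and higher with the inhibitor at 24 h. At 6 h its levels were 52.1, 47.5 and 52.2 CPM with vehicle, 39.6, 39.9 and 37.3 CPM with TWEAK, and 36.6, 36.1 and 40.0 CPM with the inhibitor added. At 24 h they were 52.8, 51.2 and 54.2 CPM, 34.4, 34.0 and 34.0 CPM, and 39.8, 42.8 and 41.5 CPM. The inhibitor samples overlapped TWEAK at 6 h and lay above it at 24 h. TWEAK lowered Tgfbr1 by 1.29-fold at 6 h (-0.37, SE 0.0472, adjusted p 6.88e-07) and by 1.55-fold at 24 h (-0.63, SE 0.0496, adjusted p 4.18e-11). The NIK SMI1 difference was -0.06 (SE 0.0502, adjusted p 0.502) at 6 h and 0.27 (SE 0.0492, adjusted p 0.000154) at 24 h. In both inhibitor groups Tgfbr1 stayed below vehicle, by -0.43 (SE 0.0495, adjusted p 4.03e-07) and -0.36 (SE 0.0487, adjusted p 2.74e-06).

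Tgfbr3 encodes betaglycan, the coreceptor that presents ligand to the type II receptor, and was barely expressed, at 22 to 94 reads per sample. At 6 h the levels were 0.875, 0.909 and 1.04 CPM with vehicle, 0.776, 0.994 and 1.21 CPM with TWEAK, and 0.863, 0.878 and 1.22 CPM with TWEAK plus NIK SMI1. At 24 h they were 1.36, 1.67 and 1.66 CPM, 2.64, 2.01 and 1.86 CPM, and 1.80, 1.16 and 1.92 CPM. The groups overlapped at 6 h, and at 24 h all TWEAK samples exceeded vehicle. At 24 h the TWEAK difference of 0.47 (SE 0.218) had an adjusted p of 0.0896, so no change with TWEAK was detectable at this depth. The difference between vehicle at 24 h and 6 h, 0.62 (SE 0.238), fell at the threshold with an adjusted p of 0.0501.

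**Figure D3:**
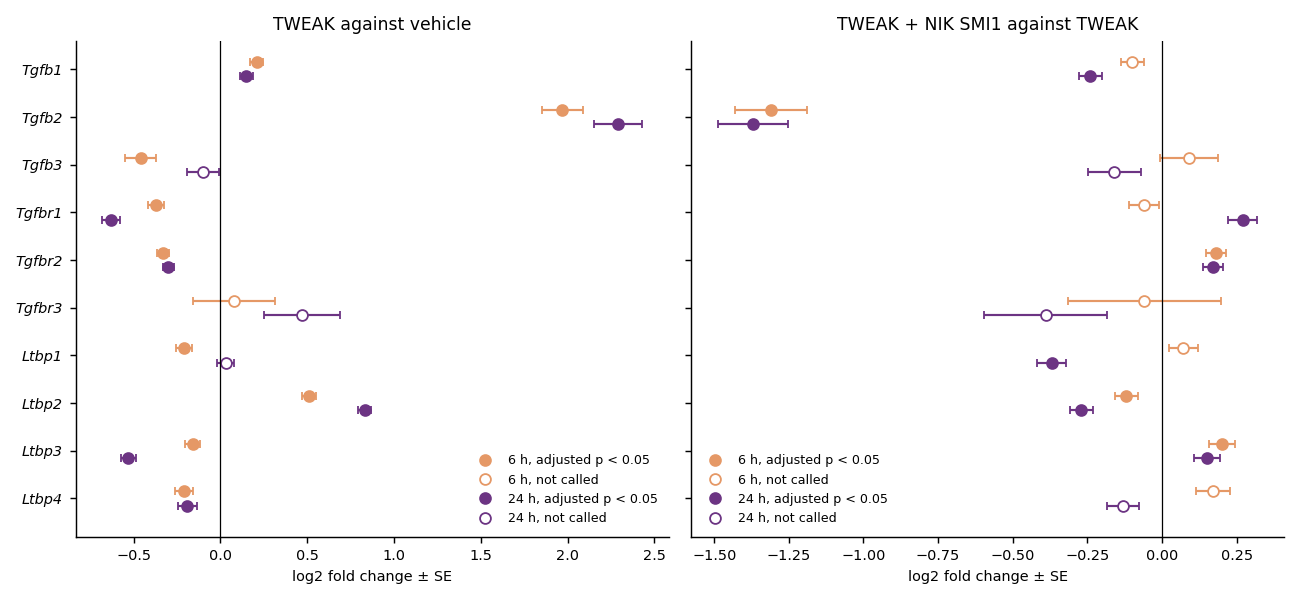
Fitted log2 fold change with its SE for the 10 genes, TWEAK against vehicle on the left and TWEAK plus NIK SMI1 against TWEAK on the right, at 6 h (orange) and 24 h (purple); filled points passed an adjusted p of 0.05. Tgfb2 lies at 1.97 and 2.29 on the left and at -1.31 and -1.37 on the right, and every other gene lies within 0.83 of 0.

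The latent binders did not move as a group. Ltbp2, a matrix protein on elastic microfibrils that, unlike the other members of its family, does not bind latent TGF-beta covalently, was the binder that rose. It held 108, 112 and 120 CPM with vehicle at 6 h, 158, 167 and 157 CPM with TWEAK, and 144, 150 and 151 CPM with TWEAK plus NIK SMI1. At 24 h the values were 96.9, 102 and 94.1 CPM, 172, 174 and 174 CPM, and 150, 146 and 137 CPM. No 2 treatments overlapped at either time. Ltbp2 rose 1.43-fold at 6 h (0.51, SE 0.0383, adjusted p 2.73e-11) and 1.77-fold at 24 h (0.83, SE 0.0397, adjusted p 1.42e-15). NIK SMI1 lowered it by 0.27 on the log2 scale at 24 h (adjusted p 6.51e-06), leaving it at 0.56 (SE 0.0397, adjusted p 2.48e-11) over vehicle. At 6 h the inhibitor difference of -0.12 (SE 0.0386) was close to the threshold (adjusted p 0.0390), and it was lost when the 6 h samples were fitted alone (adjusted p 0.0738) and when any TWEAK sample, or inhibitor replicate 1 or 2, of that time was left out (-0.14 to -0.10, highest adjusted p for Ltbp2 0.182). It was lost, too, at about the same size, without the 2 TWEAK samples at 24 h low in islet reads (-0.13, SE 0.0414, adjusted p 0.0527 for Ltbp2).

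Ltbp3, the most abundant binder here and a carrier that supports secretion of latent TGF-beta, was lower with TWEAK. It held 413, 446 and 468 CPM with vehicle at 6 h, 382, 411 and 384 CPM with TWEAK and 427, 474 and 455 CPM with the inhibitor. At 24 h it held 423, 457 and 425 CPM, 302, 312 and 290 CPM, and 349, 337 and 323 CPM. The inhibitor samples overlapped vehicle at 6 h and lay between vehicle and TWEAK at 24 h. Ltbp3 fell with TWEAK by 0.16 at 6 h (SE 0.0430, adjusted p 0.00573) and by 0.53 at 24 h (SE 0.0437, adjusted p 1.13e-10) on the log2 scale. The 6 h call was lost without vehicle replicate 3 (-0.13, adjusted p 0.0516). NIK SMI1 raised Ltbp3 by 0.20 (SE 0.0433, adjusted p 0.00241) at 6 h and by 0.15 (SE 0.0435, adjusted p 0.0126) at 24 h. The 24 h call for Ltbp3 was lost without TWEAK replicate 3 (0.13, adjusted p 0.0841) and without inhibitor replicate 1 (0.13, adjusted p 0.0630). Without the 2 TWEAK samples low in islet reads it was lost at about the same size (0.15), with a larger error from 1 remaining sample. That sample is farther from the inhibitor group in islet reads, so this fit cannot check the islet difference.

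Ltbp1, the founding member that links latent TGF-beta to fibronectin and fibrillin matrix, differed from vehicle by the test at 6 h. Its 6 h levels were 98.3, 89.4 and 91.4 CPM with vehicle, 77.5, 81.1 and 80.4 CPM with TWEAK, and 85.9, 88.8 and 76.5 CPM with the inhibitor. Its 24 h levels were 88.8, 93.1 and 92.9 CPM, 91.9, 93.6 and 95.0 CPM, and 74.8, 72.9 and 70.3 CPM. At 6 h the TWEAK samples were the low ones against vehicle, and at 24 h the inhibitor samples lay below both other groups. Ltbp1 fell with TWEAK by 0.21 at 6 h (SE 0.0472, adjusted p 0.00122). At 24 h it stood 0.03 above vehicle and was not called (SE 0.0483, adjusted p 0.645). With NIK SMI1 the difference from TWEAK was 0.07 (SE 0.0486, adjusted p 0.413) at 6 h and -0.37 (SE 0.0479, adjusted p 1.54e-06) at 24 h, where Ltbp1 was also below vehicle by -0.34 (SE 0.0488, adjusted p 7.83e-06).

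Ltbp4, the binder with the narrowest preference for the TGFB1 complex and a role in elastic fibre assembly, held 24.8, 25.5 and 26.8 CPM with vehicle, 20.6, 22.7 and 22.8 CPM with TWEAK and 24.3, 24.4 and 26.4 CPM with the inhibitor at 6 h. At 24 h it held 33.6, 37.1 and 34.6 CPM, 31.7, 31.1 and 29.1 CPM, and 28.9, 28.0 and 27.4 CPM. TWEAK samples were below vehicle at both times, and the inhibitor samples were above TWEAK at 6 h and below it at 24 h. Ltbp4 fell with TWEAK by 0.21 at 6 h (SE 0.0547, adjusted p 0.00499) and by 0.19 at 24 h (SE 0.0546, adjusted p 0.00555). The 6 h call was lost without TWEAK replicate 1 (-0.16, adjusted p 0.0538) and the 24 h call without the 2 TWEAK samples low in islet reads (-0.14, SE 0.0822, adjusted p 0.252). Against TWEAK, NIK SMI1 gave 0.17 (SE 0.0575, adjusted p 0.0577) at 6 h and -0.13 (SE 0.0539, adjusted p 0.113) at 24 h, and against vehicle Ltbp4 was lower by -0.32 (SE 0.0548, adjusted p 7.17e-05) at 24 h.

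Against vehicle, cells given TWEAK with NIK SMI1 had 5 of the 10 genes called at 6 h, where 13.9% of all genes were called (7.23% higher, 6.70% lower), and 7 at 24 h, against 17.9% (8.07% higher, 9.83% lower). Tgfb2 and Ltbp2 were higher at both times, Tgfb3, Tgfbr1 and Tgfbr2 lower at 6 h, and Tgfbr1, Tgfbr2, Ltbp1, Ltbp3 and Ltbp4 lower at 24 h. Ltbp1 at 6 h was below vehicle without overlap but missed the edgeR threshold (-0.14, SE 0.0483, adjusted p 0.0544). It was called by DESeq2 (adjusted p 0.0405), and by edgeR with DESeq2 size factors (adjusted p 0.0496) or with no filter on low counts (adjusted p 0.0208). Culture time alone moved 4 of the 10 in vehicle, against 29.9% of all genes (15.5% higher, 14.4% lower). Ltbp4 was higher at 24 h than at 6 h by 0.38 (SE 0.0548, adjusted p 5.17e-06), and Tgfb1 (-0.25, SE 0.0396, adjusted p 2.14e-05), Ltbp2 (-0.28, SE 0.0399, adjusted p 2.95e-06) and Tgfb2 (-0.48, SE 0.160, adjusted p 0.0250) were lower. The Tgfb2 difference with time was lost without vehicle replicate 3 at 6 h (-0.39, adjusted p 0.118) or vehicle replicate 2 (-0.39, adjusted p 0.104) or 3 (-0.41, adjusted p 0.0967) at 24 h. The TWEAK effect differed between 24 h and 6 h for 4 of the 10 genes, Tgfbr1, Ltbp1, Ltbp2 and Ltbp3, where 8.91% of all genes were called, and the NIK SMI1 effect for 3, Tgfbr1, Ltbp1 and Ltbp4, against 4.74%. Across the 6 groups, all 10 genes differed by the F test, as did 61.7% of all genes.

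The patterns nearest to the 3 members with the widest range over groups were sought by Pearson r of log2 CPM over the 18 samples, which share the 6 groups. Tgfb2 ran closest to Ralb (0.977), a small GTPase, Eif3c (0.976), a translation initiation factor, and Epcam (0.971), an epithelial adhesion molecule. Ltbp2 ran closest to Pdgfb (0.980), the B chain of platelet-derived growth factor, Il23a (0.977), the p19 chain of interleukin-23, and Vegfc (0.977), a lymphatic growth factor. Tgfbr3 ran closest to Dlx3 (0.927), Lhfpl2 (0.915) and Triobp (0.912).

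Genes that release or store latent TGF-beta were examined next, as 24 genes of which 21 were tested. With TWEAK 7 rose and 1 fell at 6 h and 8 rose and 3 fell at 24 h, with list medians of 0.02 and 0.12. Over all genes 11.7% rose and 12.0% fell at 6 h and 18.3% and 20.7% at 24 h. With NIK SMI1 1 rose and 7 fell against TWEAK at 6 h, beside 5.34% and 5.70% of all genes, and 1 rose and 9 fell at 24 h, beside 10.2% and 8.29%, with medians of -0.20 and -0.11. Itgb6, the chain of the epithelial integrin that releases latent TGF-beta, rose with TWEAK by 1.13 (SE 0.0553, adjusted p 5.30e-15) and 1.25 (SE 0.0617, adjusted p 2.93e-15) at 6 h and 24 h. It fell by 0.55 (SE 0.0553, adjusted p 4.40e-08) and 0.72 (SE 0.0574, adjusted p 2.76e-10) with NIK SMI1. Mmp9, a gelatinase that can cleave the latent complex, rose by 2.13 (SE 0.0910) and 5.02 (SE 0.102) with TWEAK and with NIK SMI1 fell by 1.49 (SE 0.0915) and fell by 2.48 (SE 0.0730). The study already reports human MMP9 as TWEAK-inducible and NIK-dependent, by qRT-PCR in human RPTECs. Thbs1, thrombospondin 1, rose by 0.82 (SE 0.0432) and 0.43 (SE 0.0432) and fell by 0.43 (SE 0.0430) and 0.27 (SE 0.0431) with the inhibitor. Plau, urokinase, rose by 0.47 and 0.15 and fell by 0.24 with the inhibitor at 6 h, with a value of 0.03 (SE 0.0288, adjusted p 0.524) at 24 h.

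The SMAD transducer list held Smad2, Smad3, Smad4 and Zfyve9, which encodes a SMAD anchor rather than a SMAD. Of these 4 genes, 2 rose with TWEAK at 6 h and 3 at 24 h. None fell by edgeR, at an unadjusted p under 0.05 or by DESeq2 (0 in each). Over all genes 11.7% and 18.3% rose and 12.0% and 20.7% fell. Smad3, a receptor-activated SMAD, rose by 0.16 (SE 0.0308, adjusted p 0.000267) and 0.20 (SE 0.0313, adjusted p 7.62e-06). Of the 12 feedback and inhibitor genes, set beside the same shares of all genes, 2 rose and 3 fell at 6 h and 5 rose and 3 fell at 24 h. Tgif2, a SMAD corepressor, rose by 1.04 (SE 0.0895) and 1.01 (SE 0.0868) with TWEAK and fell by 0.35 (SE 0.0893) and 0.47 (SE 0.0788) with NIK SMI1, whereas Cd109, a TGF-beta coreceptor that dampens signalling, fell by 0.90 (SE 0.0888) with TWEAK at 24 h.

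Of 26 genes known to respond to TGF-beta in many cells, 24 were tested and Ltbp2 is also a member here. With TWEAK 5 rose and 3 fell at 6 h and 9 rose and 3 fell at 24 h, with medians of -0.02 and 0.04. Beside the 11.7% and 12.0% of all genes that rose and fell at 6 h, and the 18.3% and 20.7% at 24 h, the share of the list that fell was close to the background at 6 h. With NIK SMI1 edgeR called 3 lower at 6 h and 8 lower at 24 h, where 5.70% and 8.29% of all genes were lower, with list medians within 0.01 of 0. None were called higher at either time by edgeR or DESeq2, and at an unadjusted p under 0.05 there were 3 higher at 6 h and 0 at 24 h.

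The neighbouring BMP and activin genes included larger changes than most of the 10. Of 9 ligands tested of 11, 2 rose and 3 fell with TWEAK at 6 h and 2 rose and 5 fell at 24 h, beside 11.7% and 12.0% of all genes at 6 h and 18.3% and 20.7% at 24 h. Inhba, the activin A subunit, rose by 0.71 (SE 0.0554, adjusted p 5.96e-11) and 0.80 (SE 0.0581, adjusted p 8.66e-12), and Bmp7, a BMP with known antifibrotic activity in the kidney, fell by 0.53 (SE 0.0362, adjusted p 4.74e-12) and 0.48 (SE 0.0363, adjusted p 1.93e-11). Of 8 BMP and activin receptors tested, none was called with TWEAK at 6 h by edgeR or DESeq2, with 0 at an unadjusted p under 0.05, and 2 rose and 2 fell at 24 h. Of 5 antagonists tested of 7, 1 rose and 2 fell with TWEAK at each time. Nbl1, a secreted BMP antagonist, rose by 0.46 (SE 0.0557) and 0.89 (SE 0.0593), whereas Fst, which encodes the activin trap follistatin, fell by 0.96 (SE 0.0430) and 1.18 (SE 0.0439), and Grem1, the BMP antagonist gremlin, fell by 0.92 (SE 0.102) and 1.48 (SE 0.111). With NIK SMI1 against TWEAK, 3 ligands rose and 1 fell at 6 h, and 4 rose and 2 fell at 24 h. Of the antagonists 1 rose at 6 h, and 2 rose and 1 fell at 24 h. Of the receptors 1 fell at each time. Over all genes 5.34% rose and 5.70% fell at 6 h, and 10.2% and 8.29% at 24 h.

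**Figure D4:**
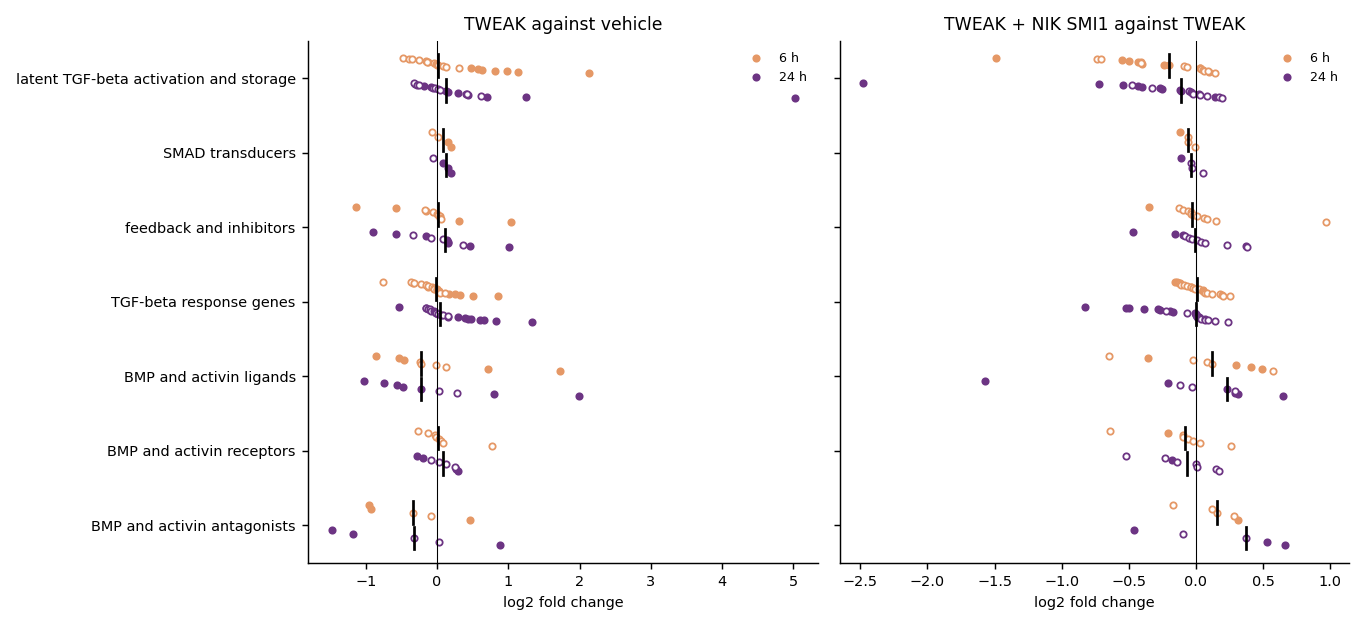
Log2 fold change of each tested gene in 7 lists of TGF-beta, BMP and activin pathway genes, TWEAK against vehicle on the left and TWEAK plus NIK SMI1 against TWEAK on the right, at 6 h (orange) and 24 h (purple); filled points passed an adjusted p of 0.05 and black bars are list medians. Mmp9, at 5.02 with TWEAK at 24 h and -2.48 with NIK SMI1, lies farthest out.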

How the data were processed

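RNA-seq reads of 18 samples were filtered by the authors, aligned to the mouse genome (NCBI build 37) and counted per Entrez gene, and the deposited files give a raw count, an RPKM value and a gene width for each gene and sample. The submitters' processing notes also name DESeq2. Symbols were taken from a RefSeq table by Entrez ID, which matched 31049 of 36528 genes. From the counts, edgeR 4.0.16 in R 4.3.3 was run on all 18 samples in 6 groups (TMM scaling, quasi-likelihood test, Benjamini-Hochberg adjustment), keeping those genes for which 4 or more samples exceeded 10 reads. The common biological coefficient of variation was 0.0404. Members' levels were given as CPM (reads per 1000000 reads on genes), and levels between genes as the deposited RPKM. DESeq2 1.42.0, other scaling and filters, each time point alone, each sample left out and the study's fold limits were tried as alternatives. Test scripts were tested on simulated data.

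The 10 genes and all other lists were chosen with earlier results of these data known. Every member is named. From each other list the text gives counts and at most 4 genes with the smallest adjusted p in the TWEAK or NIK SMI1 comparisons, and marker and positive check genes may be named. One gene that this rule would name is not reported here. Likeness was given for the 3 members with the widest range over groups, with 3 genes each. Samples of a group differed by more than sampling noise (chi-square per gene 2.19 to 9.95), so none were merged. The library kit does not mark strand: on GRCm38, antisense exons overlap 9.34% of the exon bases of Ltbp2, 2.01% of Ltbp3 and 2.14% of Tgfb2, and 2 such genes overlap 4.82% and 7.60% of Tgfb3, and reads of the 2 strands cannot be told apart there. An exon of an unconfirmed gene on the same strand covers 4.54% of Tgfbr3.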

Additional observations from a re-analysis of the deposited data

Results flagged for a closer look

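The TWEAK effect and the NIK SMI1 effect differed between the times for several genes by the interaction term of the edgeR fit, and these are listed with no explanation. The TWEAK effect at 24 h minus that at 6 h was 0.31 (SE 0.0550, adjusted p 0.000266) for Ltbp2, so the rise was larger at 24 h. For Ltbp3 it was -0.37 (SE 0.0613, adjusted p 0.000155), a deeper fall at 24 h. For Tgfbr1 it was -0.26 (SE 0.0685, adjusted p 0.0123), again a deeper fall, and without the 2 TWEAK samples at 24 h low in islet reads it was as large (-0.25) with a larger SE of 0.0921 and an adjusted p of 0.137. For Ltbp1 it was 0.24 (SE 0.0675, adjusted p 0.0213), a fall at 6 h that was not seen at 24 h, and this call was lost in 4 of the fits that left out 1 sample, namely vehicle or TWEAK replicate 1 at 6 h and vehicle replicate 1 or TWEAK replicate 3 at 24 h (0.19 to 0.23, adjusted p 0.0503 to 0.0784), and without the 2 samples low in islet reads (0.22, SE 0.0867, adjusted p 0.195).

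The NIK SMI1 effect at 24 h minus that at 6 h was -0.44 (SE 0.0682, adjusted p 0.000329) for Ltbp1, which was below TWEAK with the inhibitor at 24 h. For Tgfbr1 it was 0.34 (SE 0.0703, adjusted p 0.00518), with Tgfbr1 above TWEAK at 24 h. Without the 2 samples low in islet reads it was 0.32 and the call was lost. That fit moves the TWEAK group away from the inhibitor group in islet reads, so it cannot check the islet difference. For Ltbp4 the NIK SMI1 effect at 24 h minus that at 6 h was -0.30 (SE 0.0788, adjusted p 0.0287), the inhibitor samples lying above TWEAK at 6 h and below it at 24 h. The Ltbp4 call was lost in 6 fits that left out 1 sample (TWEAK replicate 1 or inhibitor replicate 2 at 6 h, and TWEAK replicate 1 or 2 or inhibitor replicate 2 or 3 at 24 h, -0.31 to -0.25, adjusted p 0.0515 to 0.107). Without the 2 samples low in islet reads the Ltbp4 value was larger (-0.35) but the call was lost, and the same limit holds.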

How the results depend on the processing

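No paired analysis was possible because the labels give the samples no replicate numbers. The median log2 change of all genes lay between -0.011 and 0.013 in every fit. With DESeq2, with DESeq2 size factors or with filterByExpr, no member called in the report lost its call, and Tgfb2 kept its direction and call with TWEAK and with NIK SMI1 under every alternative run. With filterByExpr 2 members rather than 1 rose from 6 h to 24 h in vehicle, Tgfbr3 being added. With each time point fitted alone, 1 member rather than 2 fell with NIK SMI1 at 6 h, Ltbp2 being lost. With no filter on low counts, 773 rather than 483 genes had a NIK SMI1 effect that rose with time. Under the study's fold limits, 1 member rose and 0 fell with TWEAK at 6 h, 1 rose and 0 fell at 24 h, and 0 rose and 1 fell with NIK SMI1 at each time, the 1 being Tgfb2.

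Leaving out the 2 TWEAK samples at 24 h low in islet reads was chosen after seeing the data, and leaves that group with 1 sample that is assumed to vary like the others. For NIK SMI1 against TWEAK at 24 h it widens the islet difference between the groups. Genes called then numbered 1761 higher and 1949 lower with TWEAK at 24 h (2843 and 3211 with all samples), 686 and 704 with NIK SMI1 at 24 h (1579 and 1286), 242 and 489 for the TWEAK effect between times (503 and 880), and 194 and 115 for the NIK SMI1 effect between times (483 and 252). Members called fell to 1 lower with NIK SMI1 at 6 h, 1 higher and 1 lower for the TWEAK effect between times, and 0 higher and 1 lower for the NIK SMI1 effect between times, and the Tgfb2 difference for the last turned from -0.06 to 0.0832.

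Leaving out 1 sample at a time, members lower with NIK SMI1 at 6 h numbered 1 to 2, members higher in vehicle at 24 h 1 to 2, members higher for the TWEAK effect between times 1 to 2, and members lower for the NIK SMI1 effect between times 1 to 3. Genes higher with NIK SMI1 at 6 h numbered 489 to 914, genes lower with TWEAK plus NIK SMI1 than vehicle at 6 h 622 to 1146, and genes with a NIK SMI1 effect that differed between times 260 to 719 higher and 128 to 367 lower. Values that were not called changed sign for Tgfbr3 (TWEAK at 6 h -0.0738 to 0.224, NIK SMI1 at 6 h -0.2045 to 0.0942, TWEAK plus NIK SMI1 against vehicle -0.115 to 0.118 at 6 h and -0.038 to 0.2692 at 24 h), for Ltbp3 (TWEAK plus NIK SMI1 against vehicle at 6 h, -0.0035 to 0.0723) and for Tgfb2 (NIK SMI1 effect between times, -0.1948 to 0.0361). The cause was not tested. Depth limits Tgfbr3, at 22 to 94 reads, most.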

Other observations

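Summed over the 3 ligands, RPKM was 33.1 ± 0.360 with vehicle, 38.5 ± 0.275 with TWEAK and 34.9 ± 1.94 with TWEAK plus NIK SMI1 at 6 h, and 29.4 ± 0.692, 33.7 ± 1.13 and 27.8 ± 0.209 at 24 h (SD, n = 3). Summed over the 3 receptors it was 52.4 ± 1.78, 41.0 ± 0.367 and 45.7 ± 0.311 at 6 h and 56.2 ± 1.38, 44.5 ± 0.920 and 50.6 ± 1.24 at 24 h. Summed over the 4 latent binders it was 107 ± 4.37, 102 ± 3.49 and 112 ± 4.62 at 6 h and 105 ± 4.18, 90.8 ± 1.97 and 90.3 ± 3.38 at 24 h. The ligand sum was thus highest, and the receptor sum lowest, in the TWEAK group of each time, while the binder sums with TWEAK and with the inhibitor overlapped at 24 h.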
